A study of Mus musculus with 24 samples.

Results

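The effect of irradiation in lungs of mice that also received Su was read from 4 of the 24 samples of the series: Su 1 and Su 2, without irradiation, and IR+Su 1 and IR+Su 2, with irradiation (IR). They were chosen by their titles, so that both sides carried Su and the labelled difference was irradiation alone. Each sample is RNA from shock-frozen mouse lung taken at day 24 after irradiation and measured on 1 single-colour microarray, and the labels call both samples of a group biological replicates. The series has 12 groups of 2 samples, and the remaining 20 samples serve here for comparison: they form 5 further arms, each a pair of irradiated and unirradiated groups, that received no drug (ctrl and IR), Ly, imatinib, both Ly and imatinib, or both Ly and Su. Imatinib inhibits the kinases ABL and KIT and the PDGF receptors. Ly and Su are given by their short names in the labels and are used here by those names. The labels give no strain, age, sex, dose of radiation, dose of drug or treatment schedule. For the second IR+Su sample the title gives the replicate number 2 and the source name gives 1, and the title was followed. The series title names the question, whether blocking TGF-beta and PDGF signalling together attenuates lung fibrosis caused by radiation.

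Ionising radiation breaks DNA, and the p53 protein then switches on a set of target genes, among them the cell cycle inhibitor Cdkn1a and the secreted stress factor Gdf15. In the lung, weeks of macrophage recruitment and fibroblast activation can follow, with TGF-beta driving collagen synthesis and PDGF driving the growth of mesenchymal cells. Protein-folding genes form another well-known stress response: cytosolic chaperones are switched on by heat shock factor, and chaperones of the endoplasmic reticulum (ER) by the unfolded protein response.

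The level used throughout is the log2 signal of a probe minus the log2 of its array's 75th percentile, and a difference is IR+Su minus Su on that scale, ± the standard error (SE) of the fit, with n = 2 arrays in each group. The 75th percentile of the signal was 1102 to 1316 on the 4 Su-arm arrays and 629.4 to 2264 on the other 20. In the Su arm 62.0% to 66.6% of spots were well above background, against 62.2% to 78.5% elsewhere. Across genes Su 1 and Su 2 correlated at r = 0.9917 and IR+Su 1 and IR+Su 2 at 0.9901, and Su with IR+Su arrays at 0.981 to 0.9845; genes are not independent replicates. The Su arrays lay on slide 2 together with the imatinib arrays, and the IR+Su arrays on slide 5 together with the IR+Imatinib arrays, so that irradiation and slide cannot be told apart within the Su arm. The same slides carry the imatinib arm, which makes the Su arm minus the imatinib arm the comparison in which a shift shared by a whole slide cancels. Lung markers were bright on all 4 arrays: Sftpc, the surfactant protein C of alveolar type II cells, stood at 8.92, 8.91, 8.93 and 8.73, and Scgb1a1, the secretoglobin of club cells, at 8.40, 8.32, 8.28 and 8.01, in the order Su 1, Su 2, IR+Su 1, IR+Su 2 that is kept for all values below.

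Of 20409 genes tested, 2212 passed an adjusted p of 0.05 between IR+Su and Su (limma, Benjamini-Hochberg), which is 10.8%: 962 were higher with irradiation (4.71%) and 1250 lower (6.12%). The median difference over all genes was -0.06. In 15369 genes (75.3%) both arrays of one group lay beyond both arrays of the other, 32.1% with the irradiated arrays higher and 43.2% with them lower. The count rested on all 4 arrays: it was 353 without Su 1, 235 without Su 2, 650 without IR+Su 1 and 269 without IR+Su 2. The split by direction moved with the scaling, to 497 higher and 513 lower after quantile normalization, 609 and 522 after cyclic loess, and 687 and 4066 when each array was centred on its median, which put the median of all genes at -0.28. In all, 174 genes were called on the full data and again without each of the 4 arrays, 128 of them higher and 46 lower. Called in the same direction with quantile, cyclic loess and normexp were 33 genes, of which 25 were also among those 174.

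Direction went with brightness. Genes were divided by mean level into 5 classes of equal size. Among the dimmest class 282 were called higher and 31 lower, and among the brightest class 36 higher and 700 lower. The median difference ran from 0.20 in the dimmest class through 0.15, -0.02 and -0.13 to -0.25 in the brightest. The imatinib arm, on the same slides, had a slope of the same sign, from 0.52 to -0.10, and the arm without drug ran from -0.08 to 0.05. After quantile normalization the medians of the Su arm lay between -0.07 and -0.01. With normexp background correction they ran from 0.96 in the dimmest class to -0.38 in the brightest. Counts of lower calls in lists of abundant genes, such as chaperones, are therefore given below beside the level of the list. List counts of the Su arm are to be read beside the shares over all genes, 4.71% higher and 6.12% lower.

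**Figure D1:**
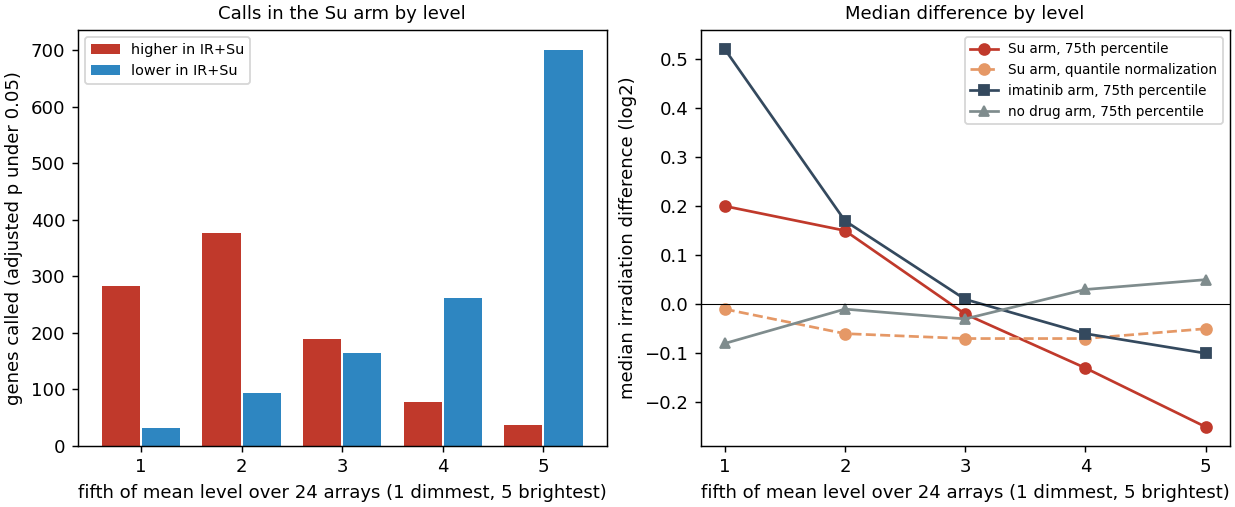
Left, number of genes called higher (red) or lower (blue) in IR+Su than in Su, by class of mean level (5 classes of equal size) over the 24 arrays; right, median irradiation difference (log2) in each class for the Su arm with 75th percentile scaling and with quantile normalization, and for the imatinib and no drug arms. Higher calls fall from 377 in the class next to the dimmest to 36 in the brightest while lower calls rise from 31 to 700, and the slope of the Su arm is flat after quantile normalization.

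In several genes the unirradiated Su arrays, rather than the irradiated ones, were unlike the other groups. Of these, Rab27a and Eml2 kept their calls under every other setting tried. Rab27a, a small GTPase that moves lytic granules and melanosomes, stood at -1.32, -1.32, 0.89 and 0.73. The irradiated arrays thus lay above the Su arrays by 2.13 ± 0.18 (4.36-fold, adjusted p = 2.92e-05, limma). Ly+Su, the other unirradiated group with Su and on another slide, was as low, at -1.71 and -1.75, while the 8 unirradiated arrays without Su spanned 0.69 to 1.36 and the irradiated arrays of all other groups 0.64 to 1.31. Only the 4 arrays with Su and without irradiation were low. The irradiation difference was 2.43 in the Ly+Su arm, 0.08 in the imatinib arm and 0.16 without drug. Over 18 other settings the Su arm difference lay between 1.90 and 2.21, with a largest adjusted p of 0.0153, and both probes for Rab27a were called, at 1.19 and 2.13.

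Eml2, a microtubule-associated protein, repeated the arrangement at 2.72, 2.74, 4.40 and 4.25, a difference of 1.60 ± 0.21 (adjusted p = 0.000952, limma). Ly+Su stood at 2.79 and 2.93, and every array outside these unirradiated Su-containing groups lay between 3.65 and 4.59. Zc3h7b, a zinc finger protein that binds RNA, stood at 0.01, -0.12, 1.32 and 1.21 (1.32 ± 0.15), with Ly+Su at 0.65 and 0.31. Rsad1, a protein of the radical SAM family, was at background on both Su arrays and rose by 1.82 ± 0.23 on the fitted scale, at least 2.08-fold. It was not among the genes called with all of quantile, cyclic loess and normexp. Lmnb1, a lamin of the inner nuclear membrane, stood at -1.06, -1.16, 0.86 and 0.79, with Ly+Su at -0.78 and -1.14; its difference of 1.93 lost its call with normexp and without Su 1, Su 2 or IR+Su 2, with values of 1.71 to 2.00 over all settings. Cd151, a tetraspanin of cell adhesion, moved the other way, from 5.36 and 5.35 to 4.69 and 4.48 (-0.77 ± 0.12), and lost its call with normexp.

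Pax5, the transcription factor that fixes the B cell lineage, was low in both unirradiated groups with Su, but these groups together did not lie apart from the others. The Su arrays alone lay just below the other 10 unirradiated arrays, of which the lowest was at -3.83. Pax5 stood at -4.08, -4.03, -1.03 and -0.77, a rise of 3.15 ± 0.31 (8.89-fold, adjusted p = 9.02e-05, limma), with both probes called. Ly+Su was at -3.23 and -3.83 and IR+Ly+Su at -1.46 and -0.52. Untreated lungs, however, were also low, at -3.75 and -3.77, and stayed low with irradiation, at -3.57 and -3.67. The arrangement of the 12 groups in Pax5 is therefore not that of Rab27a.

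Other genes had Su arrays apart from all other unirradiated groups, Ly+Su included. C1s2, a close copy of the complement protease gene C1s1 that a probe may not tell apart from it, stood at 0.37, 0.16, -4.14 and -3.67. Irradiated lungs were thus lower by 4.17 on the log2 scale (-4.17 ± 0.40, 18-fold, adjusted p = 6.5e-05, limma), yet the other unirradiated arrays lay between -7.66 and -6.02, none of them well above background and all below both groups of the Su arm. C1s1 itself differed by -0.21 and did not pass. Azgp1, which encodes zinc-alpha-2-glycoprotein, stood at -1.61, -1.67, 0.08 and 0.26 (1.81 ± 0.24), against 0.02 to 0.84 on the other unirradiated arrays. Slc13a4, a sulfate transporter, rose by 2.07 ± 0.30, and Thumpd1, a tRNA-binding protein, and Casp9, the initiator caspase of the mitochondrial pathway, rose by 0.82 and 0.91. A second probe for Thumpd1 gave -0.35. Tnfrsf14, a TNF receptor family member on lymphocytes, fell by 1.60 on the log2 scale (-1.60 ± 0.21), with both of its probes called. Hmox1, the haem-degrading enzyme and a target of NRF2, stood at 0.51, 0.61, 1.81 and 1.89 (1.29 ± 0.20), while the other unirradiated arrays lay between 1.21 and 2.24. In the 5 genes with a positive difference among these (Azgp1, Slc13a4, Thumpd1, Casp9 and Hmox1), the IR+Su arrays lay within or near the range of the other irradiated groups, and IR+Su minus the mean of those groups was -0.43 to 0.41, with no adjusted p under 0.05. Over all genes that comparison called 562 (2.75%), 0.348% higher and 2.41% lower, and Su minus the mean of the other unirradiated groups called 865 (4.24%), 0.784% higher and 3.45% lower.

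**Figure D2:**
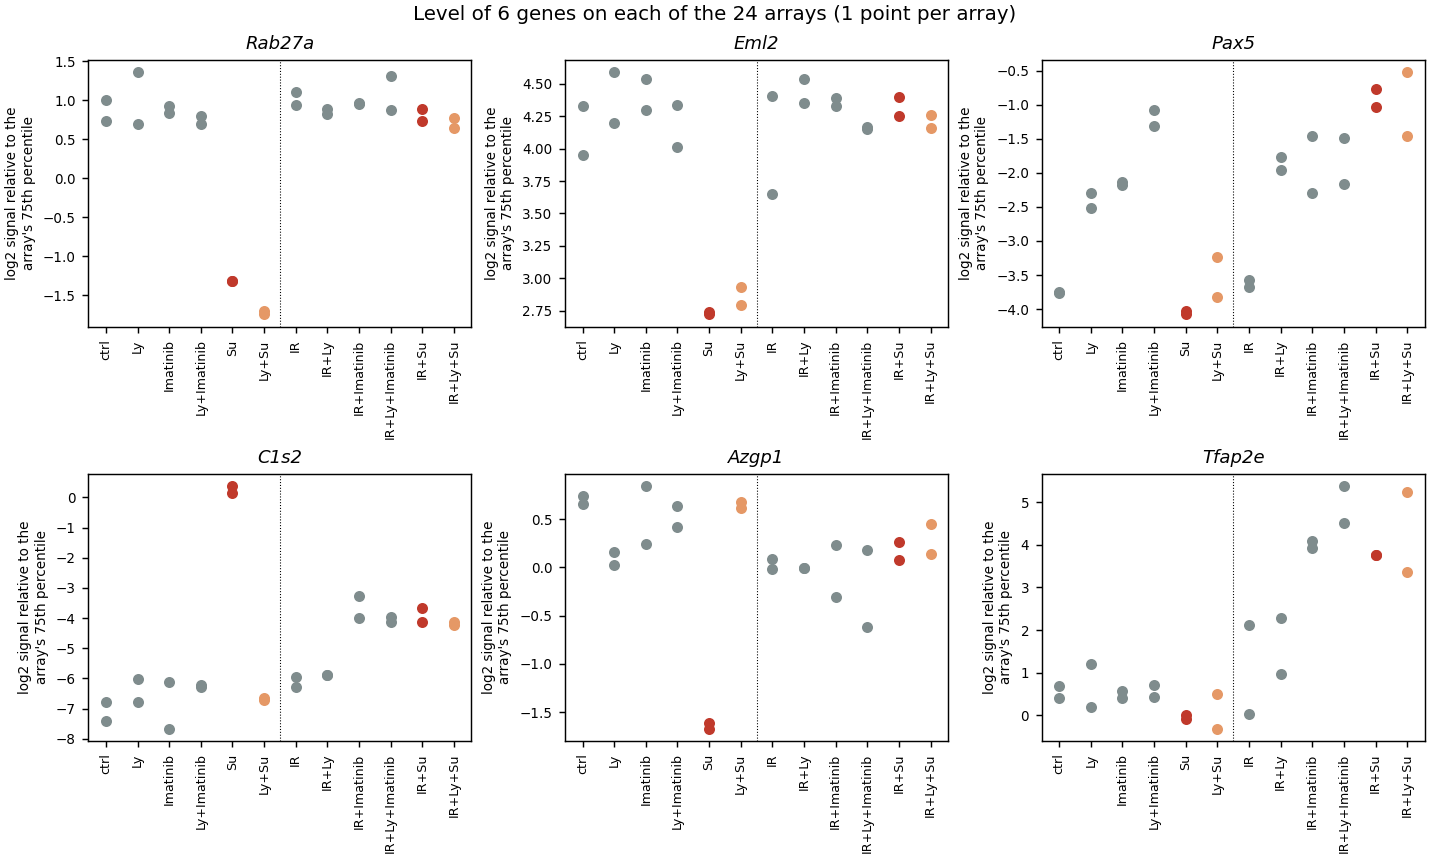
Level of Rab27a, Eml2, Pax5, C1s2, Azgp1 and Tfap2e on each of the 24 arrays (log2 signal relative to the array's 75th percentile, 1 point per array), by group, unirradiated groups left of the dotted line and irradiated groups right of it. Su and IR+Su are red and Ly+Su and IR+Ly+Su orange: Rab27a and Eml2 are low in Su and Ly+Su alone, C1s2 is high and Azgp1 low in Su alone, and Tfap2e is high in the 4 irradiated groups that carry imatinib or Su.

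Counted over all genes, both Su arrays lay outside the range of the other 10 unirradiated arrays in 14.2% of genes tested and in 35.1% of the 2212 called (777 genes). Both IR+Su arrays lay outside the range of the other 10 irradiated arrays in 9.79% of genes tested and in 15.6% of those called (344 genes). When the 4 arrays of Su and Ly+Su were set against the 8 other unirradiated arrays, they lay apart on one side in 3.21% of all genes and in 16.5% of the 418 genes called in the same direction in the Su and the Ly+Su arms, 57 of them lower and 12 higher. For the irradiated arrays with Su the shares were 4.16% of all genes and 3.59% of those 418. The groups in these counts were compared after the values had been seen. The called genes were selected by the same Su and IR+Su values, so a raised share among them is partly built in.

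Another arrangement was a high level on all irradiated arrays that carried imatinib or Su. Tfap2e, the transcription factor AP-2 epsilon, had the largest called rise of the Su arm among the genes taken for naming, from 0.01 and -0.08 to 3.75 and 3.76 (3.79 ± 0.66, 13.8-fold, adjusted p = 0.00472, limma); without Su 2 the adjusted p was 0.0512. Its difference was 3.52 in the imatinib arm, 4.36 in the Ly+imatinib arm, 4.22 in the Ly+Su arm and 0.53 without drug. Smg8, a regulator of nonsense-mediated decay, was not well above background on any unirradiated array and was at least 1.25-fold higher in IR+Su. Spry4, a feedback inhibitor of ERK signalling, well above background on 1 of 2 Su arrays, rose by 1.98. Both lost their calls without Su 1, Su 2 or IR+Su 2. The irradiated groups with imatinib or Su lay on slides 5 and 6, and the irradiated groups without them on slide 4, so that drug and slide cannot be told apart here.

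Further genes at the ends of the ranking lay near background in one group. Gp2, a membrane glycoprotein of the pancreas and of M cells, was at background on both Su arrays and at least 9.38-fold higher with irradiation. Zfyve9, which anchors SMAD proteins to endosomes, was at least 7.11-fold higher, though a second probe gave -0.25. Fthl17e, one of a family of near-identical ferritin-like genes that a probe may not tell apart, was at least 5.0-fold higher. The linker histone gene H1f5 rose by 2.67 ± 0.37. Among falls, the homeobox gene Hoxd4, at background in IR+Su, was at least 5.01-fold lower, and Nmrk2, a kinase of NAD synthesis, at least 4.26-fold lower. Rbp7, a retinol-binding protein, stood at -0.36, -0.28, -2.60 and -2.72 (-2.34 ± 0.22, adjusted p = 5.78e-05, limma), with both probes called, and differed from the other groups on both sides: Su was 1.06 above the other unirradiated groups and IR+Su -1.01 from the other irradiated groups. H1f5, Hoxd4, Nmrk2 and Rbp7 kept their calls without each of the 4 arrays, whereas Gp2, Zfyve9 and Fthl17e lost theirs without any 1 of them. With normexp background correction, with which 34 genes were called in all, none of these 7 passed.

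Some chaperone genes fell with irradiation in the Su arm. All 21 heat shock genes tested had a negative difference, and 7 were called lower and 0 higher, with a median of -0.34 against -0.06 for all genes. Of all genes 6.12% were called lower and 4.71% higher. The brightest class, which held 15 of the 21, had 700 of its 4082 genes called lower and 36 higher. Hspa4l, an HSP110-type nucleotide exchange factor, fell from 1.45 and 1.36 to 0.40 and 0.30 (-1.05 ± 0.11, adjusted p = 0.000165, limma). Hspb1, a small heat shock protein, fell from 3.82 and 3.86 to 2.92 and 2.89 (-0.94 ± 0.11), and Hsph1, a relative of Hspa4l, from 3.25 and 3.21 to 2.30 and 2.09 (-1.04 ± 0.20). The stress-induced HSP90 gene Hsp90aa1 fell from 6.08 and 5.97 to 5.44 and 5.33 (-0.64 ± 0.10). Ahsa1, which activates HSP90, Hspd1, the mitochondrial chaperonin, and Cryab, a small chaperone of muscle and lens, fell by 0.47, 0.43 and 0.34 on the log2 scale. In each of these 7 genes both irradiated arrays lay below both Su arrays. In all 7 both IR+Su arrays also lay below the other 10 irradiated arrays, while the Su arrays did not lie apart from the other unirradiated ones. Of all genes called lower in the Su arm, 20.9% had both IR+Su arrays outside the range of the other irradiated arrays. The 7 were selected by these IR+Su values, so this is partly built in. Hspa1a, the inducible HSP70 gene, and Dnajb1, an HSP40 co-chaperone, differed by -0.14 and -0.25 and did not pass.

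In the ER list 17 of 24 genes had a negative difference, 7 were called lower and 0 higher, and the median was -0.27. The shares over all genes were 6.12% lower and 4.71% higher. The calls were Calr and Hsp90b1, the calreticulin and GRP94 genes, Hspa5, which encodes the master chaperone BiP, the disulphide isomerase gene Pdia6, Manf and Creld2, which encode secreted ER stress proteins, and Chac1, a glutathione-degrading enzyme. Calr fell from 3.89 and 3.88 to 3.18 and 3.16 (-0.72 ± 0.19). Hsp90b1 fell from 5.92 and 6.0 to 5.43 and 5.19 (-0.65 ± 0.14), and Hspa5 from 4.94 and 4.99 to 4.37 and 4.44 (-0.56 ± 0.11, adjusted p = 0.00976, limma). Chac1, Manf, Pdia6 and Creld2 fell by 0.64, 0.54, 0.52 and 0.52 on the log2 scale. Hspa5, Manf and Creld2 also had both IR+Su arrays below the other irradiated arrays, and Calr, Hsp90b1, Pdia6 and Chac1 did not. Transcription factors of the response, Atf4, Xbp1 and Ddit3, differed by 0.44, 0.07 and -0.29 and did not pass. A second probe for Calr gave -0.08, and the 4 probes for Pdia6 ranged from -0.52 to 0.17.

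The promoters of Hspa5, Hsp90b1 and Calr are shown because they hold a sequence through which the unfolded protein response is known to act. Each is the window of 250 bases before the start of the gene from RefSeq, mouse build GRCm38.p6, read on the strand of the gene. Capitals mark the ER stress response element, searched on both strands as CCAAT followed by any 9 bases and CCACG. The genes were chosen after their values had been seen.
Hspa5, chr2:34771840-34772089, plus strand: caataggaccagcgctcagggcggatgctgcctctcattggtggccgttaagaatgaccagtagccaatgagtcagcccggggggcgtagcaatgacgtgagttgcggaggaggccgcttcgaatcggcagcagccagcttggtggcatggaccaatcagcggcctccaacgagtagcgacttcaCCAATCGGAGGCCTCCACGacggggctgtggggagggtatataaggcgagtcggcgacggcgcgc
Hsp90b1, chr10:86705445-86705694, minus strand: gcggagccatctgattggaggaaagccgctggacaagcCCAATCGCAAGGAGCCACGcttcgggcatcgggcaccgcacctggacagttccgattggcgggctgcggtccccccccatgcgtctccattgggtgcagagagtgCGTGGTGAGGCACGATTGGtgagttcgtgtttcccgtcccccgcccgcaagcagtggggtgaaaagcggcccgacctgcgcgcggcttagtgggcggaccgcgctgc
Calr, chr8:84846932-84847181, minus strand: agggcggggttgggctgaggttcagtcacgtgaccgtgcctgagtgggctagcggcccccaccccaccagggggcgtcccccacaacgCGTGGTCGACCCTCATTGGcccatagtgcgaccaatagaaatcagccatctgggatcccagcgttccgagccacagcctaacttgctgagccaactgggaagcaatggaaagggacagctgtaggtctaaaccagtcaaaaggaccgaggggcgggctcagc
The element began 65 bases before the start of Hspa5, 212 and 107 bases before that of Hsp90b1 and 162 bases before that of Calr. It was present in 37 of 32841 promoter windows of this length (0.113%). Of the 7 ER genes called lower, 6 had a window and 5 of these held the element (Calr, Creld2, Hsp90b1, Hspa5 and Pdia6), and of the 17 not called, 16 had a window and 2 held it (Canx and Dnajc3, which differed by 0.06 and -0.19). The heat shock element, searched on both strands as 3 alternating units of GAA and TTC with any 2 bases between neighbours, was in 0.466% of windows, in 1 of the 5 windows of called heat shock genes (Hspd1) and in 1 of 12 of those not called (Hspe1). A match describes the sequence and does not show binding, and whether the element bears on the falls was not tested. The split into called and not called moved with the scaling: 1 ER gene was called lower after quantile normalization.

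The chaperone calls depended on scaling more than on direction. The brightest class of genes held 15 of the 21 heat shock genes and 13 of the 24 ER genes, and relative to the median of genes of like level the list medians were -0.09 and -0.12. After quantile normalization 4 heat shock genes and 1 ER gene were called lower, with medians of -0.12 and -0.17, after cyclic loess 3 and 1, with -0.09 and -0.13, and with normexp 1 and 0. Without 1 of Su 1, Su 2, IR+Su 1 or IR+Su 2, 3 to 5 heat shock genes and 0 to 2 ER genes were called. Hspa4l was called in all 18 settings, between -1.27 and -0.94, and Hspb1 in 17, normexp excepted. Of all genes, the imatinib arm called 2.84% (2.4% higher and 0.446% lower), the Ly+imatinib arm 3.56% (2.3% and 1.25%), the Ly+Su arm 3.4% (2.66% and 0.74%) and the Ly arm 0.0343% (0.0147% and 0.0196%). In the imatinib arm the median was -0.15 for heat shock and -0.06 for ER genes, and without drug -0.04 and 0.14. The difference between the Su arm and the imatinib arm was called in 0 genes of either list, where 0.122% of all genes were called. Against the arm without drug, where 6.34% of all genes were called lower, 5 heat shock and 8 ER genes were called lower in the Su arm. The 5 heat shock calls became 0 without Su 1, Su 2 or IR+Su 2, 1 without IR+Su 1 or ctrl 1, 2 without IR 1 or ctrl 2 and 11 without IR 2, and 1 with quantile or cyclic loess; the ER count was not recomputed in this way.

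**Figure D3:**
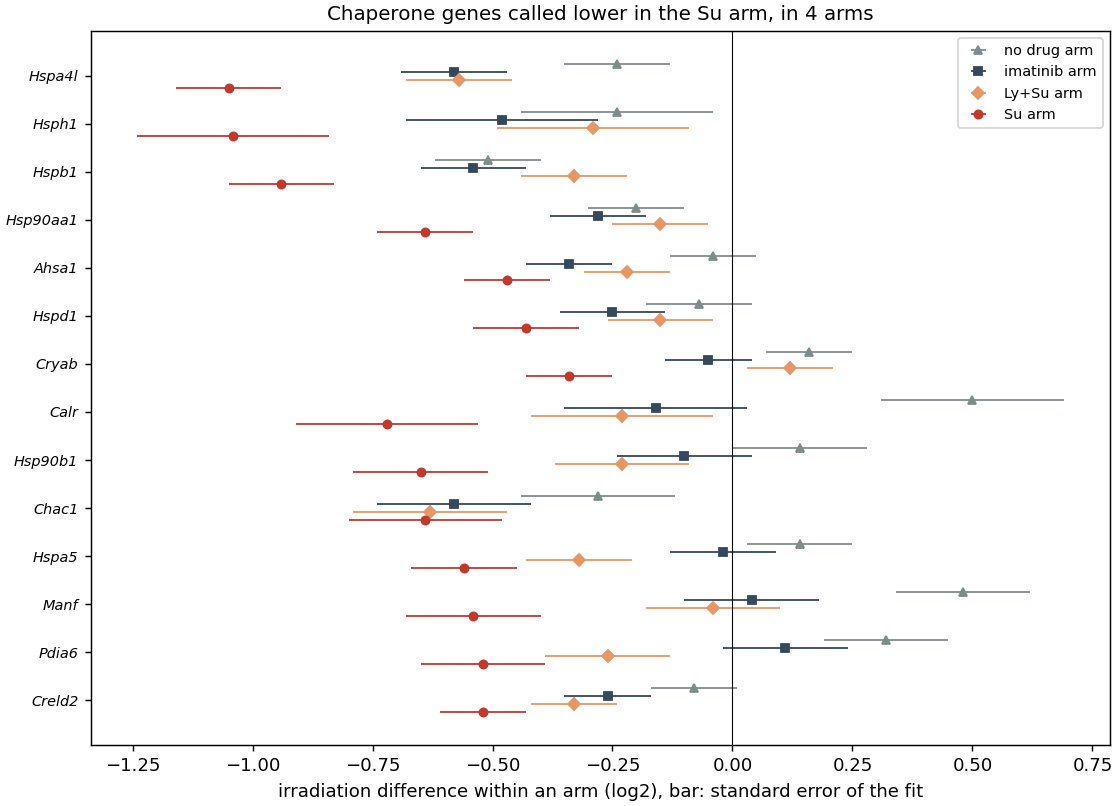
Irradiation difference (log2) of the 14 genes of the heat shock and ER lists called lower in the Su arm, in the no drug, imatinib, Ly+Su and Su arms. Points are differences of group means with n = 2 arrays in each group, and bars are the standard error of the fit. The Su arm point is the lowest of the 4 for each gene, from -1.05 in Hspa4l to -0.34 in Cryab; these genes were chosen because they were called in the Su arm.

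Ciliated, mesothelial and alveolar type I markers gave lower calls and no higher ones. Among markers of ciliated cells 25 of 27 had a negative difference, 6 were called lower and 0 higher, and the median was -0.48; in a bulk sample fewer cells of a type and less RNA per cell cannot be told apart. The ciliary motor and structure genes Dnali1, Tekt1 and Drc1 fell by 0.99, 0.76 and 0.72 on the log2 scale. Of 2 probes for the ciliary motor gene Dnah9, at -0.35 and 1.19, 1 was called higher in a fit of every probe. Foxj1, the master regulator of motile cilia, stood at 3.06, 3.13, 2.61 and 2.61 and did not pass (-0.49, adjusted p = 0.0985, limma). The imatinib arm had a median of -0.46 for this list and the mean of the other 5 arms -0.29. Of 16 mesothelial markers 15 were negative and 3 were called lower (Nkain4 -0.88, the keratin Krt18 -0.65 and the claudin Cldn15 -0.50), with a median of -0.48. Of 15 alveolar type I markers 13 were negative and 3 were called lower: Rtkn2 at -1.20, the water channel Aqp5 at -0.65 and the receptor Gprc5a at -0.48. A second probe for Rtkn2 gave 0.01. The brightest class held 13 of the 15 type I markers, and their count of lower calls was near the share of that class. With quantile normalization or cyclic loess 1 type I marker was called higher and 1 lower. Ager, the receptor that defines these cells, differed by -0.12 and did not pass. Markers of alveolar type II cells and of club and goblet cells had 0 calls. Ciliated calls numbered 0 without any 1 of the 4 arrays, and quantile normalization left 1 call each for ciliated and mesothelial markers; the median for type I cells was -0.27, which was -0.05 with quantile, 0.03 with cyclic loess and -0.02 relative to genes of like level.

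Endothelial and lymphatic markers split. The lymphatic receptor gene Lyve1 fell by 1.22, the adhesion molecule Icam2 by 0.77 and the tight junction gene Cldn5 by 0.61 on the log2 scale, while Pecam1, which encodes CD31, rose from 1.56 and 1.67 to 2.51 and 2.40 (0.84 ± 0.24, adjusted p = 0.0373, limma), with both probes called. Ackr1, the chemokine-binding receptor of venules, was at background on both Su arrays and at least 3.46-fold higher. A second probe for Lyve1 gave -0.21. Over 28 markers the median was -0.24, and it was -0.03 with cyclic loess. Lyve1 and Icam2 lost their calls without Su 1, Su 2 or IR+Su 2, and Cldn5, Pecam1 and Ackr1 without any 1 of the 4 arrays.

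Among B cell markers 3 of 23 rose with irradiation, where 4.71% of all genes were called higher. A positive difference was found in 22, with a median of 0.58, which was 0.35 to 0.57 under the other scalings. Called higher were Pax5, Cd22, an inhibitory co-receptor of B cells, and Spib, an ETS factor of the B lineage. Cd22 stood at -0.69, -0.59, 0.50 and 0.86 (1.31 ± 0.32, adjusted p = 0.0202, limma) and Spib at -0.35, -0.32, 0.44 and 0.72. Ms4a1 and Cd79a, which encode the B cell antigens CD20 and CD79a, differed by 0.72 and 0.90 and did not pass, and 3 probes for Ighm, the heavy chain of IgM, by 0.10 to 2.68, none of them called. The medians of this list were 0.34 in the Ly+Su arm, -0.09 in the imatinib arm, -0.05 without drug and 0.02 for the mean of the other 5 arms. Without 1 of Su 1, Su 2, IR+Su 1 or IR+Su 2, Pax5 was the only B cell marker called. T and NK cell markers had 0 calls of 30 and a median of 0.15, which was -0.08 when arrays were centred on their medians.

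Of 25 macrophage and monocyte markers 3 rose, where 4.71% of all genes were called higher. A positive difference was found in 22, with a median of 0.37. Cx3cr1, the fractalkine receptor of monocytes and tissue macrophages, stood at -1.58, -1.44, 0.06 and 0.09 (1.58 ± 0.33, adjusted p = 0.0111, limma). Csf1r, the receptor kinase on which macrophages depend, stood at 1.85, 1.94, 2.66 and 2.63 (0.75 ± 0.21, adjusted p = 0.0378, limma). Chil3, a chitinase-like protein of alveolar macrophages, rose by 0.90. In each of these 3 genes both irradiated arrays lay above both Su arrays, and each lost its call without any 1 of the 4. Without drug 12 of the 25 markers were called higher, with a median of 0.96; in that arm 14.2% of all genes were called, 7.31% higher and 6.89% lower.

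Genes of lipid-handling macrophages gave 1 call. Of 22 tested, 0 were called higher in the Su arm and 1 lower, the fatty acid receptor Cd36 (-0.54), against 16 called higher without drug. Spp1, the secreted matrix protein osteopontin, stood at 4.52, 4.47, 3.47 and 3.77 in the Su arm (-0.88 ± 0.27, adjusted p = 0.0504, limma) and differed by 2.26 without drug. The difference between the arms was -3.14 ± 0.38 (adjusted p = 0.0016, limma) and kept its call without each of the 8 arrays of both arms, with adjusted p of 0.000164 to 0.0126. Of all genes, 6.34% were called lower and 4.47% higher in the Su arm than without drug. The membrane glycoprotein Gpnmb, the lipid receptor Trem2 and the macrophage elastase Mmp12 differed by 0.54, 0.29 and 1.12 in the Su arm, and the Su arm minus the arm without drug was -2.55, -2.50 and -2.91. Those 3 differences between arms lost their calls without Su 1 (adjusted p = 0.0532, 0.0626 and 0.073, limma), and Mmp12 was 0.3 with normexp. Of the 22 genes 12 were called lower in the Su arm than without drug; the count was 1 without Su 1, 3 without Su 2, 3 without IR+Su 1, 4 without IR+Su 2, 6 without IR 1, 16 without IR 2, 10 without ctrl 1 and 4 without ctrl 2.

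No target of p53 was called higher with irradiation in the Su arm. Of 32 tested, 0 were called higher and 1 lower, counts near the shares over all genes, 4.71% higher and 6.12% lower. Differences were negative in 21, with a median of -0.20. The median was -0.07 with quantile normalization and -0.04 with cyclic loess, and 0 relative to genes of like level. Cdkn1a stood at 1.18, 1.15, 1.24 and 1.12 (0.02 ± 0.35, adjusted p = 0.978, limma), so that irradiated and unirradiated arrays overlapped. The other unirradiated arrays spanned -0.34 to 1.43 and the other irradiated arrays 1.19 to 3.25. Gdf15, Eda2r, a TNF receptor family member, and Psrc1, a spindle protein, differed by 0.69, 0.49 and 0.36 and did not pass, and Phlda3, an inhibitor of AKT, by -0.19. Bbc3, which encodes the apoptosis inducer PUMA, was the lower call, from 3.63 and 3.76 to 3.12 and 2.95 (-0.66 ± 0.12). It lost its call without Su 2 or IR+Su 2. Without drug 12 of the 32 were called higher, with a median of 0.42, in the imatinib arm 5, with 0.17, in the Ly+imatinib arm 7 higher and 2 lower, and in the Ly+Su arm 1 higher.

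Tested directly, the Su arm was lower than the arm without drug in 10 p53 targets and higher in 0, where 10.8% of all genes were called, 4.47% higher and 6.34% lower. Psrc1, Gdf15 and Phlda3 differed between those arms by -2.18, -1.79 and -1.19 (adjusted p = 0.0189, 0.0261 and 0.0142, limma), and Cdkn1a by -1.53 ± 0.49 without passing (adjusted p = 0.0585, limma). This count fell to 1 without Su 1, 0 without Su 2, 2 without IR+Su 1, 0 without IR+Su 2, 4 without IR 1, 7 without ctrl 1 and 3 without ctrl 2, and was 18 without IR 2. Array IR 1 had the lowest median correlation with the other arrays, 0.9658, against 0.9816 to 0.9842 in the Su arm. Against the imatinib arm 0 p53 targets were called, with a median difference of -0.45.

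Of 39 proliferation genes Top2a alone was called. The differences were positive in 34, with a median of 0.65, beside 0.71 in the mean of the other 5 arms. Top2a, the DNA topoisomerase of dividing cells, stood at -4.51, -4.31, -2.61 and -3.02 (1.60 ± 0.32, adjusted p = 0.00954, limma), and both irradiated arrays lay above both Su arrays. Its call was lost without Su 1, Su 2 or IR+Su 1. Mki67, the proliferation antigen Ki-67, stood at -0.13, -0.15, 0.81 and 0.46 and did not pass (0.77 ± 0.39), though a second probe, at 1.24, was called in a fit of every probe. The promoter of Top2a is shown for the letters through which cell cycle genes are commonly regulated, the CCAAT box and the TTTGAA or TTCGAA of the cell cycle homology region, in capitals on either strand.
Top2a, chr11:99024190-99024439, minus strand: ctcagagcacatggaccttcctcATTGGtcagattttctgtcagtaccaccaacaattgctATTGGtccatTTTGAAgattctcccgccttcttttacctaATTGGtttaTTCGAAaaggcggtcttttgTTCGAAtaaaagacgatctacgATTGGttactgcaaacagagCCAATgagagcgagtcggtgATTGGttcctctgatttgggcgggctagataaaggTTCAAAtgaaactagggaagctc
The window (GRCm38.p6, 250 bases before the start) held 6 CCAAT, 2 TTTGAA and 2 TTCGAA matches. CCAAT was in 33.9% of all windows, TTTGAA in 16% and TTCGAA in 1.34%.

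**Figure D4:**
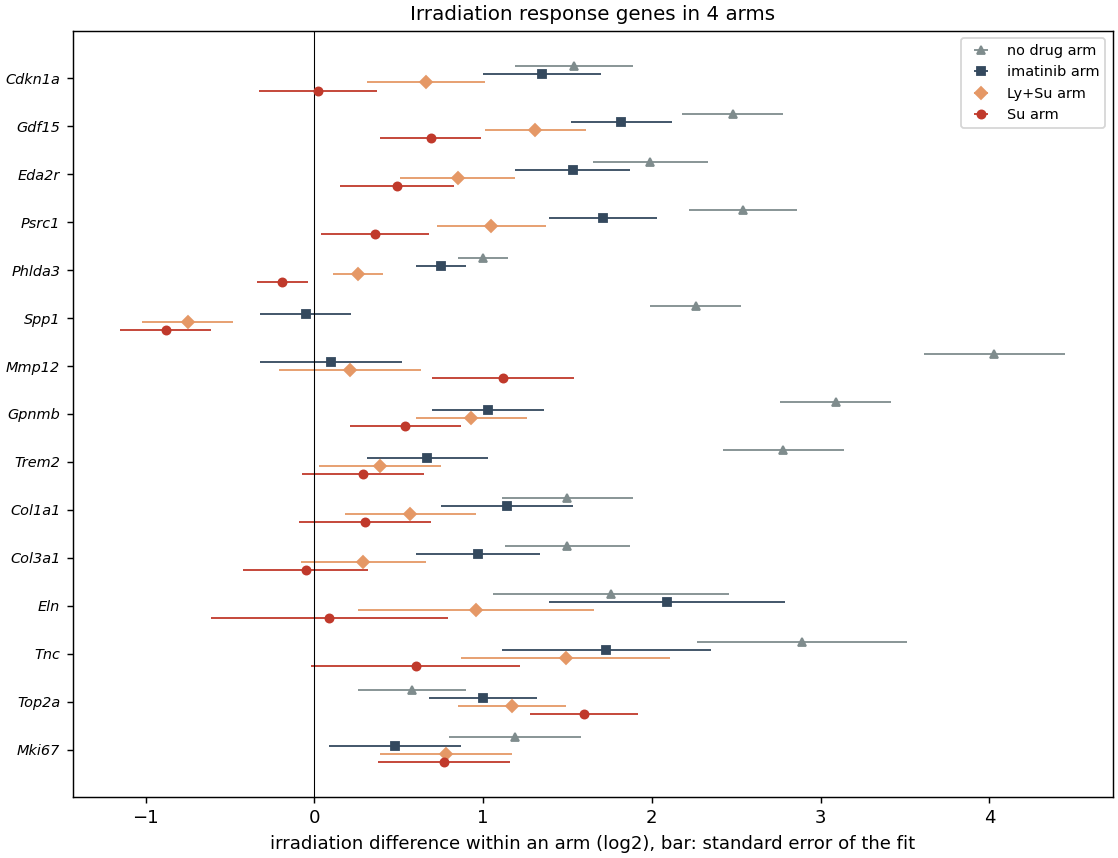
Irradiation difference (log2) of 15 genes of the p53, macrophage, matrix and proliferation lists in the no drug, imatinib, Ly+Su and Su arms; points are differences of group means with n = 2 arrays in each group, bars the standard error of the fit. In the Su arm Cdkn1a lies at 0.02 and Spp1 at -0.88, below the 1.54 and 2.26 of the no drug arm, while Top2a at 1.60 is the highest of its 4 points.

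Matrix and fibrosis genes showed few calls. In the Su arm 4.71% of all genes were called higher and 6.12% lower. Of 10 fibrillar collagens 2 were called higher and 1 lower, and none of the 3 is a main collagen of lung: Col11a1, at background on both Su arrays, was at least 2.40-fold higher, Col2a1, the collagen of cartilage, rose by 2.04 with a difference of 2.10 without drug, and Col11a2 fell by 0.63 on the log2 scale, though a second probe gave 0.68. Col1a1 stood at 3.44, 3.39, 3.74 and 3.70 (0.30 ± 0.39, adjusted p = 0.65, limma) and Col3a1 at 4.03, 4.13, 4.03 and 4.02 (-0.05 ± 0.37), with overlap in Col3a1, for which a second probe gave 1.20 and was not called either. Elastin (Eln), tenascin C (Tnc), fibronectin (Fn1) and smooth muscle actin (Acta2) differed by 0.09, 0.60, 0.90 and -0.10 and did not pass, though 1 of 3 probes for Fn1 was called, at up to 1.96. Probes for Tnc reached 1.99 without a call. In Col1a1 and Col3a1 the IR+Su arrays lay below the other 10 irradiated arrays, at 4.01 to 5.46 and 4.34 to 5.87. The Su arrays of both lay within the range of the other unirradiated arrays. Col5a1, Col5a2, Eln, Tnc and Acta2 also had both IR+Su arrays below the other irradiated ones. Col11a1 had them above, and the remaining fibrillar collagens and Fn1 had neither. Over all genes 9.79% lay outside on either side. Of 38 matricellular and elastic fibre genes 1 was called (Ccn3, 0.78), and of 21 matrix metalloproteinases and their inhibitors 0. Among enzymes that modify collagen the prolyl hydroxylases P4ha1 and P4ha2 fell by 0.42 and 0.89 on the log2 scale, with the peptidyl-prolyl isomerase Ppib by 0.47, and P3h2 rose by 0.57. In the mean of the other 5 arms, where 26.8% of all genes were called, 14.1% higher and 12.7% lower, 6 of the 10 fibrillar collagens and 19 of the 38 matricellular genes were called higher. In the Su arm minus the arm without drug, 6.34% of all genes were called lower. That difference was called in 0 fibrillar collagens and 5 matricellular genes, all 5 lower in the Su arm. Without IR 2 these counts were 3 and 11 lower, with 3 matricellular genes higher. The matricellular count was 1 without IR 1, ctrl 2 or any 1 of the 4 Su-arm arrays.

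In the TGF-beta pathway, 1 of 27 ligands, receptors and activators was called, the ubiquitin ligase Smurf1 that degrades the receptors (0.57). Tgfb1 and its receptors Tgfbr1 and Tgfbr2 differed by 0.34, 0.32 and 0.06 and did not pass, nor did second probes for the receptors, at 0.82 and 1.52. The median of the 28 response genes tested was 0.05, which was -0.18 when arrays were centred on their medians, against 0.45 in the mean of the other 5 arms. In the PDGF family and the kinases that imatinib blocks, Csf1r alone was called of 15 genes. Pdgfa, Pdgfb, Pdgfra, Pdgfrb and Kit differed by -0.31, 0.98, -0.25, -0.25 and -0.71 and did not pass. Second probes for Pdgfb and Pdgfra, at 0.62 and 1.27, were called in the fit of every probe. Among vascular growth factors, Vegfc, the ligand of lymphatic growth, fell from 2.79 and 2.78 to 1.98 and 1.70 (-0.95 ± 0.19, adjusted p = 0.01, limma) and Vegfb by 0.49, while Angpt1, the ligand of the endothelial receptor TIE2, rose by 0.74. A second probe for Angpt1 gave -0.08. The VEGF receptors Flt1 and Kdr differed by -0.45 and 0.25 and did not pass. Each call named here on matrix, TGF-beta, PDGF and vascular genes was lost without at least 1 of the 4 arrays.

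Inflammatory genes gave scattered calls. Of 21 CC chemokines and receptors, Ccl20, a chemokine for lymphocytes and dendritic cells, was at least 2.93-fold higher and Ccl25 lower (-0.70), with another of its 3 probes at 0.02. Among CXC chemokines and cytokines Cxcl9, induced by interferon gamma, stood at -4.78, -4.58, -3.47 and -1.21, with the irradiated arrays apart from each other (2.34 ± 0.69), Tnf rose by 1.26 and Tslp fell by 0.58 on the log2 scale. Tap1, a peptide transporter for antigen presentation, rose by 1.21, and Ifi27 fell by 0.58, with a second probe at -0.02. The acute-phase genes Serpina1d, one of several near-identical copies, and Serpina3k were at background on both Su arrays and at least 2.95-fold and 1.79-fold higher. Irf4, listed with alternative macrophage activation, rose by 1.57. Each of these calls on inflammatory genes was lost without Su 1, without Su 2 and without IR+Su 2, each left out singly. Neutrophil, mast cell, skeletal muscle, adipocyte and AhR target lists had 0 calls. In the cardiac muscle list 17 of 21 differences were negative, with a median of -1.03, but single genes varied widely: Myl7, the atrial light chain, stood at 4.95, 4.99, 3.65 and 3.03 and did not pass (-1.63 ± 1.00), while Nppa, the atrial natriuretic peptide, rose by 2.61. The part of heart tissue in the other results was not tested.

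**Figure D5:**
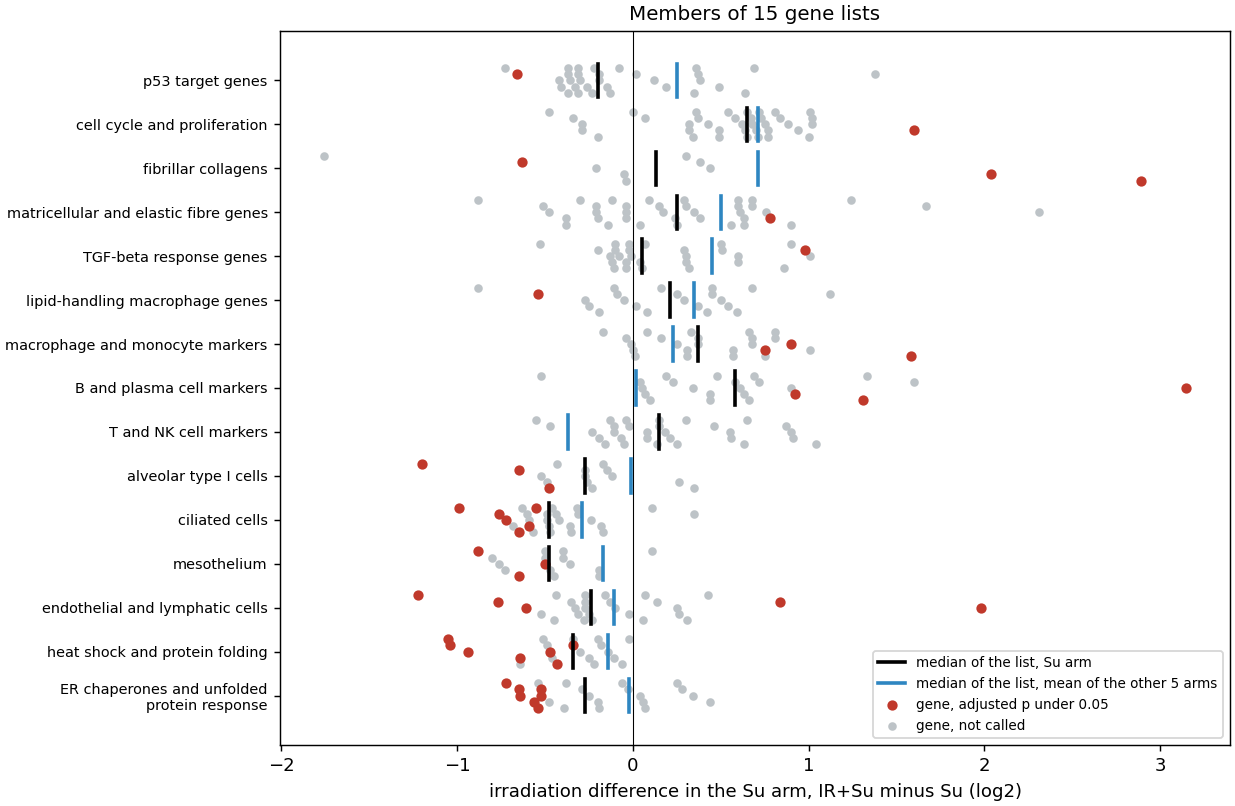
Irradiation difference in the Su arm (IR+Su minus Su, log2) of the members of 15 gene lists, 1 point per gene, red where called; black bars mark the list median in the Su arm and blue bars that in the mean of the other 5 arms. The black bar lies left of the blue one for p53 targets (-0.20 against 0.25, and -0.07 in the Su arm with quantile normalization) and right of it for B cell markers (0.58 against 0.02).

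Set against the other arms, the Su arm shared most of its directions. Of its 2212 called genes 2008 had the same sign in the mean of the other 5 arms, and 855 in all 5 singly. In that mean 1212 of them were also called in the same direction and 24 in the opposite one. Of genes called in the same direction, 418 were shared with the Ly+Su arm, which is 18.9% of the Su arm's calls and 60.3% of that arm's 693. With the imatinib arm 332 were shared (15% and 57.2%), with the Ly+imatinib arm 317 (14.3% and 43.7%), and with the arm without drug 230 (10.4% and 7.93%). Genes called in opposite directions numbered 1, 4, 2 and 66 in these arms. The arms share no arrays, but Su and imatinib share slides.

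Tests of the difference itself called few genes against the imatinib arm: 25 of 20409 (0.122%), 11 higher (0.0539%) and 14 lower (0.0686%) in the Su arm, with Rab27a (2.05 ± 0.26, adjusted p = 0.00328, limma), Azgp1 (2.40), Slc13a4 (2.56) and Aqp3, a water and glycerol channel (2.91), among the higher. C1s2 was also among the lower ones (adjusted p = 2.65e-05, limma), but was not well above background on the imatinib arrays, so the size of its difference is not determined. Against the mean of the other 5 arms 65 genes were called (0.318%), 40 higher (0.196%) and 25 lower (0.122%). In 52 of the 65 both Su arrays lay outside the other 10 unirradiated arrays, against 17 in which both IR+Su arrays lay outside the other irradiated ones. The 65 were selected by these same values, and over all genes tested the shares were 14.2% and 9.79%. Against the arm without drug 2206 were called (10.8%), 913 higher and 1293 lower, a count that was 369 without IR 1, 301 without ctrl 2, 92 without Su 1, 101 without Su 2, 254 without IR+Su 1, 129 without IR+Su 2 and 8424 without IR 2. A further comparison, chosen after the values were seen, took the Su and Ly+Su arms together against the imatinib and Ly+imatinib arms, which use the same 4 slides. It called 26 genes (0.127%), 14 higher (0.0686%) and 12 lower (0.0588%). Among them were Rab27a (2.06 ± 0.18, adjusted p = 0.000382, limma), Pax5 (3.02 ± 0.31), Eml2 (1.51 ± 0.21), Rsad1 (1.37 ± 0.23), Zc3h7b (1.06 ± 0.15) and Cd151 (-0.74 ± 0.12). Chaperones, p53 targets and collagens had no member among the 25 or the 26.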

How the data were processed

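Each sample was hybridised to 1 single-colour Agilent mouse array. The deposited scanner files hold intensity values. Background subtraction, detrending and surrogate values for low signals were applied by Feature Extraction (Agilent, version 9.1.3.1) without scaling between arrays, per the file headers. From these, 1639 control spots and outlier spots were left out, spots of a probe averaged, and log2 intensity centred on the 75th percentile of its own array. Probes were named by accession or symbol through RefSeq tables, and each gene took 1 probe.

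A limma 3.58.1 model (R 4.3.3) was fitted to 20409 genes over all 24 arrays with 12 groups, with Benjamini-Hochberg adjustment at 0.05. Its p-values measure the spread between samples labelled as biological replicates. In the Su arm comparison, a gene at background in a whole group is given as at least N-fold, against the lowest signal well above background; differences between arms are fitted values also for such genes. The number of arrays limits the precision. Named genes were the 15 highest and 15 lowest called with arrays that do not overlap, up to 6 called members of each list, the 6 highest and 6 lowest in the differences between arms, and a fixed set of response genes. Other genes named were chosen after their values were seen. The members and lists were chosen with earlier results of these data known. Comparing Su with other groups of the same irradiation state, cyclic loess, and the Su-containing against the imatinib-containing arms were added after the data were seen. On simulated data for the Su arm comparison (20409 genes) the fit recovered 2.99% of log2 changes of 0.5, 38.8% of 1 and 81.8% of 2, with 1 false call. The simulated noise was drawn independently for each gene, without a slide shift or a trend with level. False calls from those sources are therefore not covered by it. A few list members are not reported here.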

Additional observations from a re-analysis of the deposited data

Results flagged for a closer look

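These results are given because a test of the difference between arms passed (limma, adjusted p under 0.05). The number of genes called was 25 for the Su arm minus the imatinib arm, 2206 for the Su arm minus the arm without drug, 65 for the Su arm minus the mean of the other 5 arms, and 26 for the Su and Ly+Su arms minus the imatinib and Ly+imatinib arms. Against the arm without drug, 10 of 32 p53 targets and 12 of 22 genes of lipid-handling macrophages were lower in the Su arm, where 6.34% of all genes were called lower.

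On the log2 scale the irradiation difference in the Su arm was above that in the imatinib arm by 4.15 for the claudin Cldn22, 2.91 for Aqp3, 2.87 for Pax5, 2.56 for Slc13a4, 2.40 for Azgp1, 2.05 for Rab27a, 1.30 for Zc3h7b, 1.09 for Casp9 and 1.02 for Thumpd1. It differed by -7.43 for C1s2, -4.66 for the glucose transporter Slc2a2, -4.57 for Tpbpb, -4.47 for the testis linker histone H1f6, -4.09 for the integrin Itga10, -3.69 for Spertl, -2.55 for Rbp7, -2.55 for the pluripotency factor Pou5f1 and -1.79 for Tnfrsf14. Tpbpb, H1f6, Spertl and Pou5f1 were not well above background on any Su-arm array, Slc2a2 and Itga10 on either IR+Su array, Cldn22 on either Su array, and C1s2, Slc2a2, Tpbpb, H1f6, Itga10 and Spertl on either imatinib array, so the sizes given for these genes here and in the next comparison are fitted values and not measured folds. Hoxd4 and Rsad1 were likewise not above background in IR+Su and in Su. Tpbpb and Spertl were well above background on the IR+Imatinib arrays only, and so were tested only through the group that is high. With only genes well above background on all arrays of the groups compared, the difference from the imatinib arm was called higher in 10 and lower in 2.

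For the Su and Ly+Su arms together minus the imatinib and Ly+imatinib arms, the difference was 3.02 for Pax5, 2.06 for Rab27a, 1.51 for Eml2, 1.51 for Aqp3, 1.40 for Azgp1, 1.37 for Rsad1 and 1.06 for Zc3h7b. It was -3.57 for C1s2, -3.27 for Hoxd4, -2.90 for Tpbpb, -2.45 for H1f6, -2.13 for Itga10, -2.11 for Spertl, -1.67 for Rbp7 and -0.74 for Cd151. For C1s2, Azgp1, Aqp3, Itga10, H1f6 and Spertl the Su and the Ly+Su arm differed in opposite directions, so the joint value describes neither.

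Against the arm without drug the difference was -3.14 for Spp1, -2.91 for Mmp12, -2.55 for Gpnmb, -2.50 for Trem2, -1.79 for Gdf15 and 1.51 for Pecam1.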

How the results depend on the processing

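The 2212 calls of the Su arm became 1010 with quantile normalization, 1131 with cyclic loess, 4753 with each array centred on its median, 34 with normexp, 1355 with no filter on background, 6245 with the 4 arrays alone, 4202 with the 8 arrays of the Su and imatinib arms, 3992 without IR 1 and IR+Ly+Imatinib 1, and 235 to 3959 without 1 array. The 25 calls against the imatinib arm became 0 with normexp (578 at an unadjusted p under 0.05, limma), 12 with probes above background on all arrays, 5 with the groups alone, 60 without both arrays, and 17 to 257 without 1. The 2206 against the arm without drug became 1059 with quantile, 1195 with cyclic loess, 3924 with array medians, 3722 with normexp, 872 with no filter, 33 with the groups alone, 379 without both arrays, and 92 to 8424 without 1. The 65 against the mean of the other 5 arms became 108 with array medians, 2 with normexp, 37 with no filter, 41 with probes above background on all arrays, 116 with an intensity trend, 164 without both arrays, and 18 to 1732 without 1. The 26 of the Su-containing against the imatinib-containing arms became 1 with normexp, 14 with probes above background on all arrays, 112 with the groups alone, 69 without both arrays, and 10 to 302 without 1. With normexp the Su arm difference turned to 0.15 for Adam18, 0.41 for Cdh3, 0.21 for Col11a2, 0.32 for Itga10 and 0.40 for Slc2a2. With a replicate block the 5 counts were 2471, 30, 2891, 67 and 26; replicate numbers give no pairing, and Su with IR+Su deviations of the same number correlated at -0.018. The causes were not tested. Slide as a random block was not run, since each slide holds 2 whole groups, and the fit alone does not exist for the mean of 5 arms. Dim probes limit the fold values.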
